A study of Mus musculus with 6 samples.

Results

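The Hox genes of mouse soleus, a hindlimb calf muscle, were read as the rows whose symbol is Hox, a cluster letter from a to d and a number. There were 39 such genes among 21572 gene symbols (21805 table entries), 11 of them in the Hoxa cluster, 10 in Hoxb, 9 in Hoxc and 9 in Hoxd. Levels came from RNA sequencing of polyadenylated RNA in 6 libraries of adult C57BL/6 muscle, 2 in each of 3 groups. The first group was soleus 3 days after denervation from mice labelled Dach2-/-/Hdac9-/-, called DKO-labelled denervated soleus here. The second was WT soleus 3 days after denervation, and the third was WT innervated soleus. The study asked which genes depend on Dach2 and Hdac9, transcriptional regulators of the muscle response to loss of the nerve. Nothing in the labels says whether the deletions were restricted to muscle or whether a library was made from 1 animal or several, and no innervated soleus of the DKO-labelled genotype was analysed here. The labels also do not tie the libraries to separate animals. The spread behind every p-value is therefore that between these libraries and could be technical.

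Hox genes encode homeodomain transcription factors that give cells their position along the head-to-tail axis of the embryo and along the limb. They lie in clusters in which gene order follows the order of expression along the body: low-numbered genes act anteriorly and high-numbered genes posteriorly. Genes of the same number in different clusters are descended from a common ancestor and form a paralogue group. In the limb, groups 9 and 10 are known for patterning the upper segment, group 11 the middle segment and group 13 the foot or hand. Adult limb connective tissue, vessels and muscle stem cells keep a Hox pattern that reflects where they arose.

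Libraries held 25529434 to 46305449 fragments. Levels are given in FPKM, fragments scaled to the length of the transcript and to the library, so that levels of different genes can be set side by side. WT denervated replicate 2 stood apart from the other libraries, at 43.3 on the second principal component, against -27.9 to 8.8 for the other 5 libraries. Dach2 itself was at 0.961 and 0.681 FPKM in DKO-labelled denervated soleus, 0.519 and 0.536 FPKM in WT denervated soleus and 3.85 and 4.29 FPKM in WT innervated soleus. Hdac9 was at 0.534 and 0.181 FPKM in DKO-labelled denervated soleus, 1.83 and 0.285 FPKM in WT denervated soleus and 4.10 and 3.14 FPKM in WT innervated soleus. The denervated groups overlapped for Hdac9, and Dach2 was not lower in the DKO-labelled libraries. These are values of whole genes and give no check of a deletion of part of a gene. Acta1, an abundant muscle gene, is listed at 0 in all libraries, so a listed 0 can be a failed estimate. Ckm, the muscle creatine kinase, was at 3302 to 8812 FPKM.

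Soleus expressed a posterior Hox pattern led by the Hoxc cluster. Of the 39 genes, 21 had a mean of at least 0.5 FPKM over the 6 libraries and entered the tests: 9 of 11 Hoxa genes, 2 of 10 Hoxb genes, 7 of 9 Hoxc genes and 3 of 9 Hoxd genes. Only 4 genes averaged at least 5 FPKM, Hoxc10, Hoxc11, Hoxc9 and Hoxa10, and 10 averaged at least 2 FPKM. The genes just inside the limit of 0.5 were Hoxb6 at 0.657, Hoxc8 at 0.694 and Hoxd4 at 0.754 FPKM. The genes just outside it were Hoxb3 at 0.458, Hoxb2 at 0.305 and Hoxa2 at 0.276 FPKM.

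**Figure D1:**
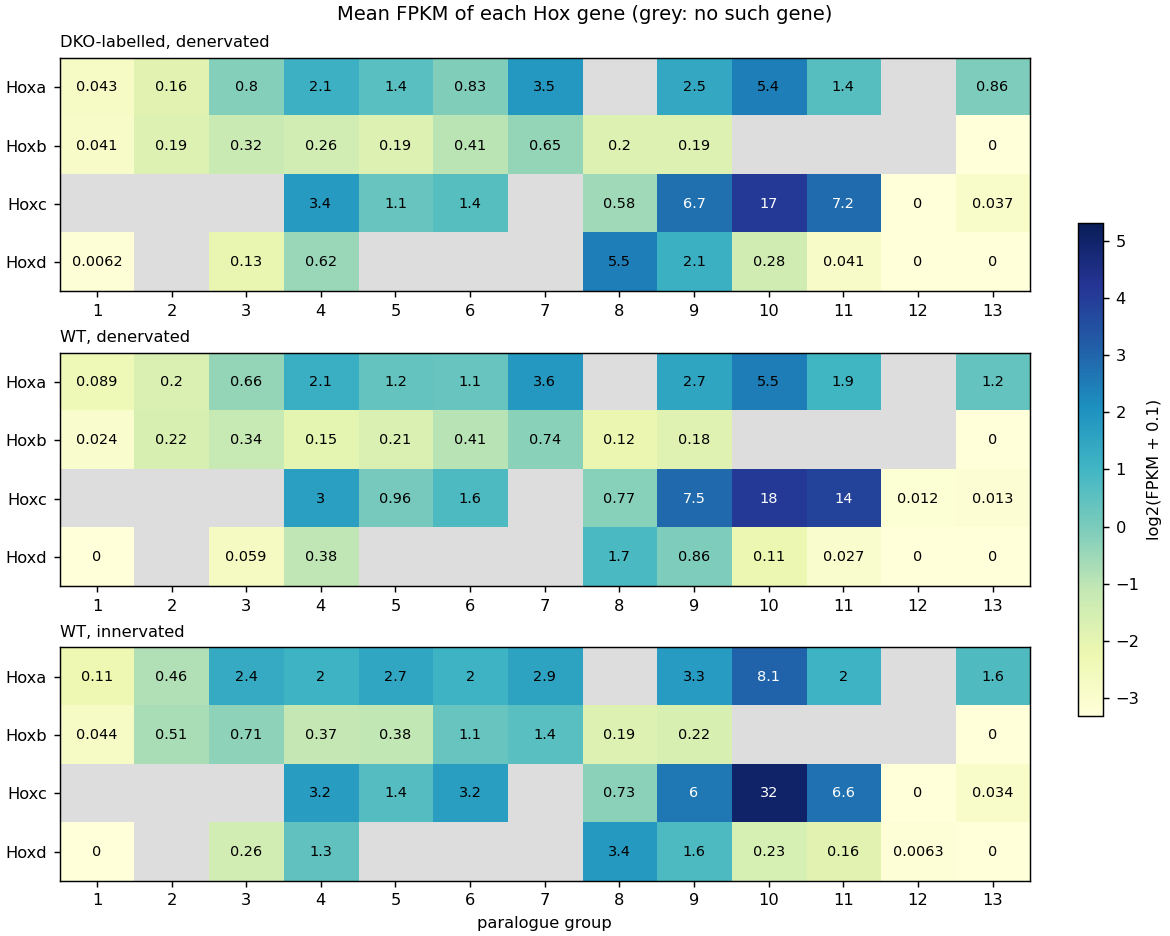
Mean FPKM of each Hox gene by cluster (rows) and paralogue group (columns), with 1 panel per group (n = 2 libraries each) and colour on a log2(FPKM + 0.1) scale. The darkest cell in every panel is Hoxc10, and paralogue groups 1 and 2 and most Hoxb genes are pale in all 3 panels.

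The Hoxc cluster held the largest share of the summed Hox FPKM in every library: 54.8% and 56.6% in DKO-labelled denervated soleus, 61.7% and 65.9% in WT denervated soleus and 54.3% and 60.3% in WT innervated soleus. Hoxa held 27.8% and 28.2% in DKO-labelled denervated soleus, 29.4% and 27.5% in WT denervated soleus and 32.0% and 27.6% in WT innervated soleus. The Hoxa and Hoxc shares of the DKO-labelled libraries lay inside the range of the WT innervated libraries. The Hoxc share was higher in the WT denervated libraries than in the other 4. The Hoxc sum itself was lower there, at 42.5 and 48.8 FPKM, than in WT innervated soleus, at 50.4 and 55.3 FPKM. By raw fragments the Hoxc share was 58.4% and 59.4% in WT denervated and 52.3% and 58.1% in WT innervated soleus. Hoxb had the smallest share in each library, with 3.90% and 3.31% in DKO-labelled denervated soleus, 3.77% and 2.98% in WT denervated soleus and 6.23% and 4.53% in WT innervated soleus. Hoxd is the cluster whose share set the 3 groups apart. It held 13.5% and 11.9% in DKO-labelled denervated soleus, 5.17% and 3.58% in WT denervated soleus and 7.49% and 7.56% in WT innervated soleus, with no overlap between any of the groups. These shares are a description with no test. When raw fragments took the place of FPKM, the Hoxd share was 12.6% and 11.0% in DKO-labelled denervated soleus, 5.03% and 3.96% in WT denervated soleus and 7.26% and 7.58% in WT innervated soleus.

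By paralogue group, groups 9 to 13 made up 63.3% and 66.6% of the summed Hox FPKM in DKO-labelled denervated soleus, 69.0% and 75.7% in WT denervated soleus and 66.4% and 66.8% in WT innervated soleus. Groups 1 to 3 made up 2.65% and 2.32% in DKO-labelled denervated soleus, 2.60% and 1.87% in WT denervated soleus and 5.15% and 4.60% in WT innervated soleus. Posterior genes therefore made up most of the Hox level in each library, and the anterior share was lower in each denervated library than in either WT innervated library. Group 10 summed to 23.5 and 22.5 FPKM in DKO-labelled denervated soleus, 24.1 and 22.3 FPKM in WT denervated soleus and 40.3 and 39.5 FPKM in WT innervated soleus. The sum over all 39 genes was 70.0 and 65.7 FPKM in DKO-labelled denervated soleus, 68.9 and 74.1 FPKM in WT denervated soleus and 92.9 and 91.7 FPKM in WT innervated soleus. Both denervated groups were below both WT innervated libraries in these sums, and the denervated groups overlapped with each other for group 10. As the muscle was sequenced whole, fewer cells of a type and less RNA per cell cannot be told apart.

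**Figure D2:**
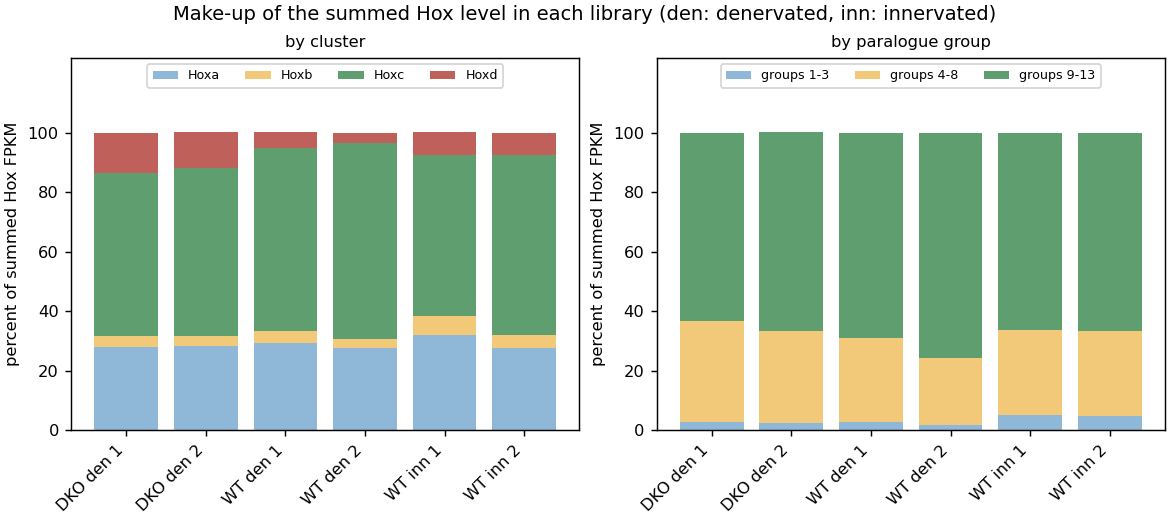
Percent of the summed Hox FPKM of each library held by the 4 clusters (left) and by paralogue groups 1 to 3, 4 to 8 and 9 to 13 (right), 1 bar per library. The Hoxd segment is 13.5% and 11.9% in the DKO-labelled libraries, 5.17% and 3.58% in the WT denervated libraries and 7.49% and 7.56% in the WT innervated libraries.

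The levels did not climb evenly along the clusters. In Hoxc they were highest from Hoxc9 to Hoxc11 and then dropped: Hoxc12 had 1 fragment in all 6 libraries together, and Hoxc13 averaged 0.0279 FPKM. In Hoxd they peaked at Hoxd8, in the middle of the cluster, and the genes for the most distal limb were at or near 0, with Hoxd12 at 1 fragment over the 6 libraries and Hoxd13 listed at 0 in all. In Hoxa the highest gene was Hoxa10, and Hoxa13, the group 13 gene of the foot, was detected at a mean of 1.21 FPKM. Hoxb levels were at most 1.53 FPKM in any library, Hoxb13 was listed at 0 in all libraries, and Hoxb1 averaged 0.0363 FPKM. A count of 0 over all libraries allows up to 3 fragments, which covers counting error only.

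**Figure D3:**
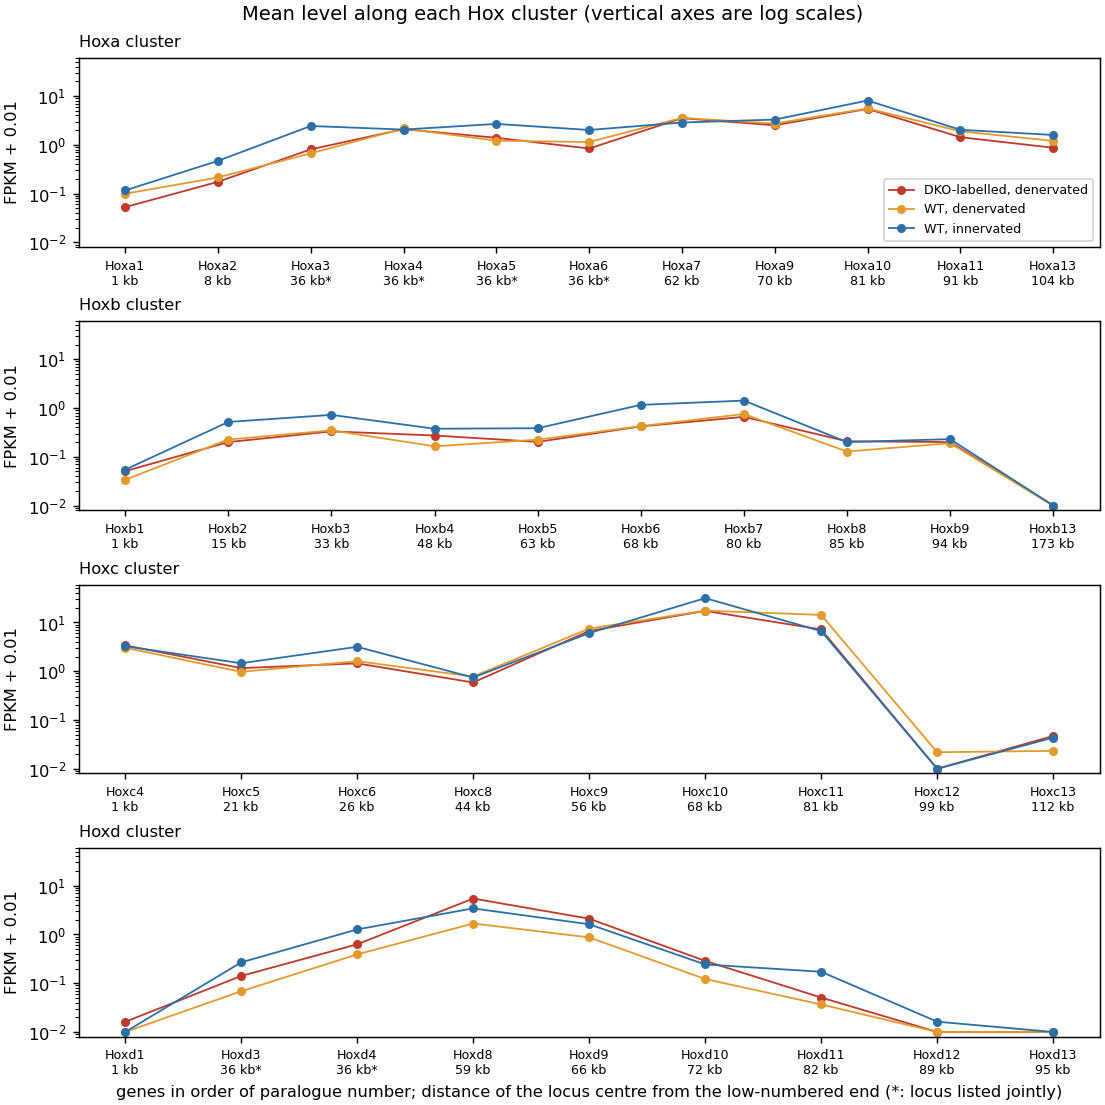
Mean FPKM + 0.01 (log scale, n = 2 libraries a group) of the Hox genes in order of paralogue number within each cluster, with the distance of the locus centre from the low-numbered end written under each name. Levels peak at Hoxa10, Hoxb7, Hoxc10 and Hoxd8 in the WT innervated group, and from Hoxd3 to Hoxd10 the DKO-labelled line lies above the WT denervated line.

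The posterior genes with the highest levels were those of the Hoxc cluster on chromosome 15 and of Hoxa10 on chromosome 6. Hoxc10 (mm9 chr15:102797295-102802152), known for its expression in the hindlimb and the lumbar trunk, had 18.3 and 16.3 FPKM in DKO-labelled denervated soleus, 19.0 and 16 FPKM in WT denervated soleus and 31.0 and 32.2 FPKM in WT innervated soleus. It had the highest Hox level in 5 of the 6 libraries. The denervated groups overlapped, and both lay below WT innervated soleus. Hoxc11 (chr15:102784956-102787132), a gene of the hindlimb and the sacral trunk, had 7.52 and 6.86 FPKM in DKO-labelled denervated soleus, 9.72 and 18.8 FPKM in WT denervated soleus and 6.13 and 7.15 FPKM in WT innervated soleus. The WT denervated libraries were above the other 4 but far apart from each other, and in WT denervated replicate 2 Hoxc11 was above Hoxc10. Hoxc9, which marks the thoracic level in the embryo, had 5.86 and 7.55 FPKM in DKO-labelled denervated soleus, 6.69 and 8.29 FPKM in WT denervated soleus and 5.46 and 6.64 FPKM in WT innervated soleus. Hoxa10, which with its paralogues keeps the lumbar vertebrae free of ribs, had 4.96 and 5.90 FPKM in DKO-labelled denervated soleus, 4.90 and 6.20 FPKM in WT denervated soleus and 9 and 7.15 FPKM in WT innervated soleus. Hoxc9 overlapped between the DKO-labelled libraries and each of the WT groups, whereas Hoxa10 was lower in each denervated library than in either WT innervated library.

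The other posterior Hoxa genes were lower. Hoxa9, a gene of the upper limb segment that is also known from blood stem cells, had 2.61 and 2.38 FPKM in DKO-labelled denervated soleus, 2.90 and 2.54 FPKM in WT denervated soleus and 3.78 and 2.79 FPKM in WT innervated soleus. Hoxa11, a gene of the middle limb segment, had 1.48 and 1.36 FPKM in DKO-labelled denervated soleus, 1.75 and 2.02 FPKM in WT denervated soleus and 2.42 and 1.63 FPKM in WT innervated soleus. Hoxa13 had 0.717 and 1 FPKM in DKO-labelled denervated soleus, 1.24 and 1.14 FPKM in WT denervated soleus and 1.69 and 1.47 FPKM in WT innervated soleus. Hoxa11 and Hoxa13 were lower in the DKO-labelled libraries than in the WT denervated ones without overlap, by less than 0.4 on the log2 scale of the fitted difference. Hoxa11 shares its locus with the antisense gene Hoxa11as, and the strand setting of the counting is not given in the sources used here, so its value is uncertain.

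The middle groups were led by Hoxa7, Hoxc4 and Hoxd8. Hoxa7, a gene of the thoracic level, had 3.74 and 3.27 FPKM in DKO-labelled denervated soleus, 3.75 and 3.36 FPKM in WT denervated soleus and 2.57 and 3.14 FPKM in WT innervated soleus. Hoxc4 had 3.42 and 3.37 FPKM in DKO-labelled denervated soleus, 3.12 and 2.93 FPKM in WT denervated soleus and 2.80 and 3.68 FPKM in WT innervated soleus. Hoxa4 had 2.26 and 1.91 FPKM in DKO-labelled denervated soleus, 2.06 and 2.23 FPKM in WT denervated soleus and 2.22 and 1.86 FPKM in WT innervated soleus. These are genes whose levels in the 3 groups lay within a narrow band, with Hoxa7 the only one of them to be above the WT innervated libraries in all denervated libraries.

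Hoxc6, an anterior limb and thoracic marker, had 1.53 and 1.36 FPKM in DKO-labelled denervated soleus, 2.12 and 1.08 FPKM in WT denervated soleus and 2.77 and 3.54 FPKM in WT innervated soleus. Hoxa6 had 1.06 and 0.600 FPKM in DKO-labelled denervated soleus, 1.09 and 1.17 FPKM in WT denervated soleus and 2.24 and 1.75 FPKM in WT innervated soleus. Hoxc5 had 1.17 and 1.13 FPKM in DKO-labelled denervated soleus, 1.14 and 0.787 FPKM in WT denervated soleus and 1.46 and 1.45 FPKM in WT innervated soleus. All denervated libraries were below the WT innervated libraries for these genes. Hoxc8 had 0.580 and 0.576 FPKM in DKO-labelled denervated soleus, 0.610 and 0.927 FPKM in WT denervated soleus and 0.811 and 0.659 FPKM in WT innervated soleus. The tested Hoxb genes were Hoxb7, with 0.606 and 0.691 FPKM in DKO-labelled denervated soleus, 0.940 and 0.546 FPKM in WT denervated soleus and 1.53 and 1.29 FPKM in WT innervated soleus, and Hoxb6. Hoxb6 had 0.565 and 0.253 FPKM in DKO-labelled denervated soleus, 0.412 and 0.419 FPKM in WT denervated soleus and 1.52 and 0.775 FPKM in WT innervated soleus. For both Hoxb genes every denervated library lay below both WT innervated libraries, while the denervated groups overlapped.

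**Figure D4:**
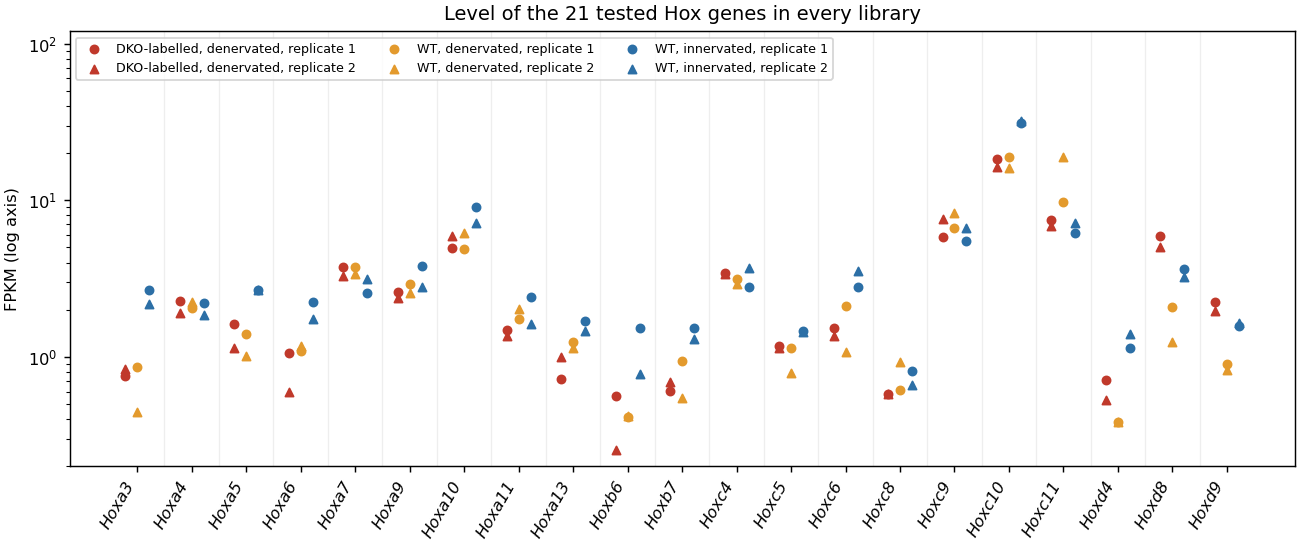
FPKM (log axis) of the 21 Hox genes with a mean of at least 0.5 FPKM, 1 point per library (circle for replicate 1, triangle for replicate 2, DKO-labelled denervated left of WT denervated and WT innervated). Hoxc10 is the highest gene in 5 of 6 libraries, Hoxc11 is spread widely in WT denervated soleus, and Hoxd8 and Hoxd9 are highest in the DKO-labelled libraries.

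Of the 3 tested genes of the Hoxd cluster, on chromosome 2, Hoxd8 and Hoxd9 had the higher levels and differed most between the denervated groups. Their promoters are shown for that reason, with that of Hoxd4 as the other tested gene of the cluster. The sequences are those of RefSeq (build GRCm38.p6, which is not the mm9 build of the expression tables), from 250 bases before to 50 bases after the annotated start, on the plus strand. The spacing of the Hoxd9 and Hoxd8 starts differs between RefSeq and the expression data. A window therefore need not lie at the start of the locus whose level was read. Capitals mark TATAAA and CCAAT on either strand, so that TTTATA and ATTGG are capitals too.
Hoxd8 promoter, chr2:74704365-74704664, plus strand: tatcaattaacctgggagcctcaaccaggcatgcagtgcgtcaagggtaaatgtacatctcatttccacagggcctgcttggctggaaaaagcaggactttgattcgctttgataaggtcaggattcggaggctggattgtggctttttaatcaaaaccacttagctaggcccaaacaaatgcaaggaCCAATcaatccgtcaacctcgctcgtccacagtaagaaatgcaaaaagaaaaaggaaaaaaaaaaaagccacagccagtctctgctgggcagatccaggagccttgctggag
Hoxd9 promoter, chr2:74697513-74697812, plus strand: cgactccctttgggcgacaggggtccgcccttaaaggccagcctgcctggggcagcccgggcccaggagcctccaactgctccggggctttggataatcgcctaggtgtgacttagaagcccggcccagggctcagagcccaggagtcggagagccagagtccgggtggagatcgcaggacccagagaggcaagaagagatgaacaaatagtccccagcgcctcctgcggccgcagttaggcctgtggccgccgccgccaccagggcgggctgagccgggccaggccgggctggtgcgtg
Hoxd4 promoter, chr2:74721728-74722027, plus strand: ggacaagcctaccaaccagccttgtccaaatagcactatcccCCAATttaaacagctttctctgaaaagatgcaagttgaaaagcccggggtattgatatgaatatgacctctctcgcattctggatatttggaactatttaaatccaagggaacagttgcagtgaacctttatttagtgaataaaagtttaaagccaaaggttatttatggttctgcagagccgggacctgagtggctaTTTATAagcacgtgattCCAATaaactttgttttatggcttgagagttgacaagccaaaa
The Hoxd9 window held neither motif and 20 CG pairs at 68.3% G or C. The Hoxd8 window held 1 CCAAT and 6 CG pairs at 46.7% G or C, and the Hoxd4 window held 2 CCAAT, 1 TATAAA and 4 CG pairs at 39.7% G or C. CANNTG, the E-box letters bound by muscle regulatory factors, occurred once in the Hoxd8 and Hoxd9 windows and at 2 places in the Hoxd4 window, and TGATNNAT, a composite Hox and Pbx site, occurred in none of them. Over all 32851 promoters of the table, 72.3% held CANNTG, 37.4% CCAAT, 13.6% TATAAA and 8.85% TGATNNAT on either strand. Over the 24 promoters of the 22 Hox genes found in it, 70.8% held CANNTG, 62.5% CCAAT, 16.7% TATAAA and 16.7% TGATNNAT. A match describes the letters of the window and is not a binding site.

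Hoxd8 (mm9 chr2:74543545-74545364), a gene in the centre of its cluster, had 5.91 and 4.99 FPKM in DKO-labelled denervated soleus, 2.08 and 1.25 FPKM in WT denervated soleus and 3.61 and 3.22 FPKM in WT innervated soleus. Hoxd9 (chr2:74535819-74538265), which acts with Hoxa9 in the upper limb segment, had 2.23 and 1.97 FPKM in DKO-labelled denervated soleus, 0.898 and 0.825 FPKM in WT denervated soleus and 1.57 and 1.65 FPKM in WT innervated soleus. For both genes the 3 groups did not overlap: DKO-labelled denervated libraries were highest, WT innervated libraries lay between and WT denervated libraries were lowest. Their listed loci lie 5280 bases apart. Hoxd4, a gene of the neck vertebrae, had 0.710 and 0.527 FPKM in DKO-labelled denervated soleus, 0.381 in each WT denervated library and 1.14 and 1.39 FPKM in WT innervated soleus. Here the WT innervated libraries were highest and the DKO-labelled libraries lay between. Hoxd3 and Hoxd4 are listed on 1 joint locus (mm9 chr2:74548100-74586328) with Mir10b, so how fragments were split between them is uncertain.

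Among the weaker Hoxd genes, Hoxd3 and Hoxd10 were also higher in the DKO-labelled than in the WT denervated libraries. Hoxd3 was at 0.187 and 0.0759 FPKM in DKO-labelled denervated soleus, 0.0589 and 0.0581 FPKM in WT denervated soleus and 0.233 and 0.284 FPKM in WT innervated soleus. Hoxd10, whose paralogues pattern the upper limb segment, was at 0.323 and 0.231 FPKM in DKO-labelled denervated soleus, 0.122 and 0.101 FPKM in WT denervated soleus and 0.332 and 0.134 FPKM in WT innervated soleus. Against WT innervated soleus they did not follow Hoxd8 and Hoxd9: Hoxd3 was highest there, and Hoxd10 overlapped with the DKO-labelled libraries. Hoxd11 overlapped between the denervated groups. Summed over the 2 libraries of a group, Hoxd10 had 47 fragments in DKO-labelled denervated soleus and 23 in WT denervated soleus. Neither gene reached the level for a test, and Hoxd1, Hoxd11, Hoxd12 and Hoxd13 had between 0 and 7 fragments in the 2 libraries of any group.

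DKO-labelled denervated soleus was first set against WT denervated soleus, the comparison made to find genes that depend on Dach2 and Hdac9. Hoxd8 and Hoxd9 were 3.29-fold and 2.54-fold higher in the DKO-labelled libraries, with log2 differences of 1.72 ± 0.31 and 1.34 ± 0.26 (SE, 2 libraries against 2). Neither passed edgeR's quasi-likelihood test after Benjamini-Hochberg adjustment over 12247 genes, with adjusted p = 0.234 for Hoxd8 and 0.295 for Hoxd9. The test called 0 of the 21 Hox genes, where 0.0408% of all genes were called (5 of 12247). At an unadjusted p under 0.05 the fit across all genes with edgeR gave 3 Hox genes, Hoxd8, Hoxd9 and Hoxc11, beside 6.11% of all genes. DESeq2 called 2 Hox genes on the same fragments, Hoxd8 (adjusted p = 0.00024) and Hoxd9 (adjusted p = 0.00571), among 182 genes in all, and limma on log2(FPKM + 0.5) called none. Over all alternatives the adjusted p ran from 0.00024 to 0.826 for Hoxd8 and from 0.00571 to 0.921 for Hoxd9, and the difference was positive in each of them. Without WT denervated replicate 1, edgeR called Hoxd8 (log2 difference 2.13, adjusted p = 0.0465), and without WT denervated replicate 2, the library that stood apart, it did not (1.41, adjusted p = 0.219).

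The sample numbers in the titles run in 2 stretches, each with 1 library of every group. Within the stretches the log2 difference of Hoxd8 between DKO-labelled and WT denervated soleus was 1.52 and 2.01, and that of Hoxd9 was 1.37 and 1.32. Hoxd4 differed by 0.71 ± 0.31 (edgeR, unadjusted p = 0.0601, adjusted p = 0.838). Hoxc11 was lower in the DKO-labelled libraries by 0.91 ± 0.34 on the log2 scale (edgeR, adjusted p = 0.761), with -0.29 and -1.38 within the stretches and -0.35 without WT denervated replicate 2, so that value rests on 1 library. The most abundant gene, Hoxc10, differed by -0.01 ± 0.15. The other tested genes had differences between -0.44 (Hoxc8) and 0.30 (Hoxa3). The median over the 21 Hox genes was -0.01, beside -0.02 over all genes tested. By FPKM, the groups did not overlap for 4 Hox genes higher in DKO-labelled soleus (Hoxc4, Hoxd4, Hoxd8 and Hoxd9), beside 14.7% of all genes, and for 5 that were lower, beside 15.1% of all genes.

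**Figure D5:**
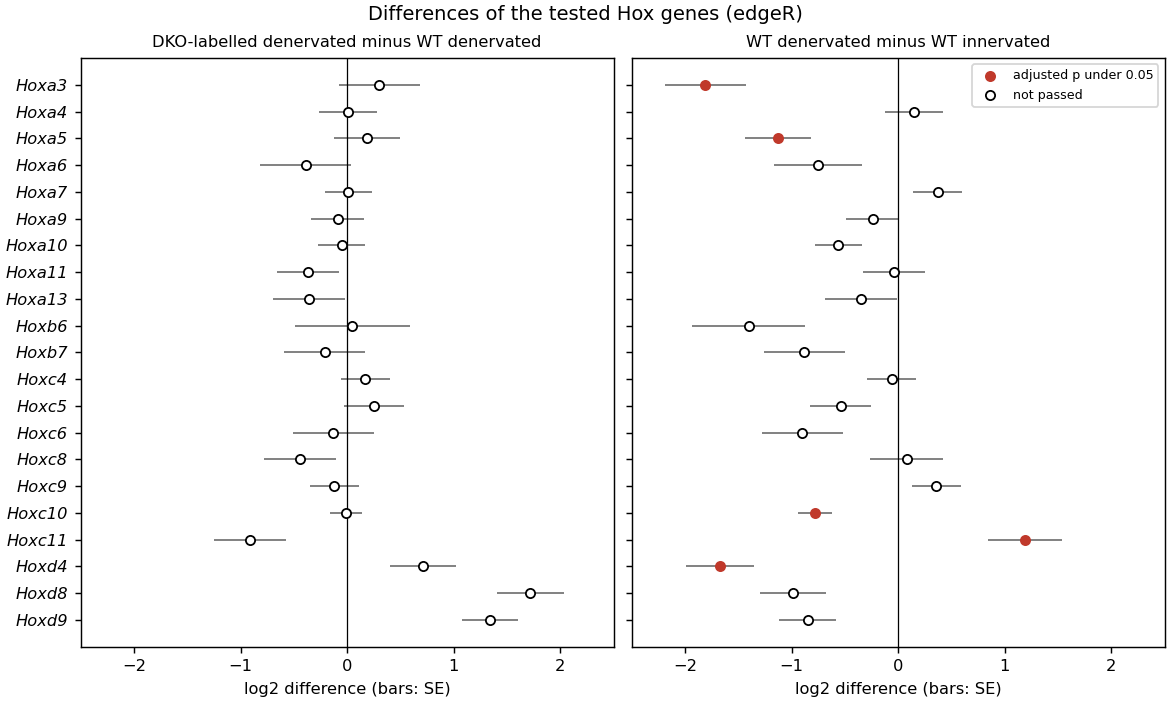
Log2 difference with its SE from edgeR (2 libraries against 2) for the 21 tested Hox genes, DKO-labelled denervated minus WT denervated on the left and WT denervated minus WT innervated on the right. Filled points passed at an adjusted p under 0.05: 0 genes on the left, and Hoxa3, Hoxa5, Hoxc10, Hoxd4 (lower) and Hoxc11 (higher) on the right.

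WT denervated soleus was then set against WT innervated soleus, which asks what 3 days without a nerve did to the Hox pattern. The most abundant Hox gene, Hoxc10, fell: its log2 difference was -0.78 ± 0.16 (1.72-fold lower), with an adjusted p of 0.0156 by edgeR. Of the 21 tested genes 4 were called lower, beside 14.3% of all genes, and 1 was called higher, beside 14.4% of all genes. The other genes that fell were of the anterior and middle groups. Hoxa3, a gene of the pharyngeal arches and neck, had 0.755 and 0.835 FPKM in DKO-labelled denervated soleus, 0.866 and 0.447 FPKM in WT denervated soleus and 2.67 and 2.17 FPKM in WT innervated soleus. Its difference between the WT groups was -1.81 ± 0.38 (3.51-fold lower, adjusted p = 0.018). Hoxa5, a gene of the neck and lung, had 1.62 and 1.14 FPKM in DKO-labelled denervated soleus, 1.40 and 1.01 FPKM in WT denervated soleus and 2.68 and 2.66 FPKM in WT innervated soleus. It was lower by 1.13 ± 0.31 on the log2 scale (2.19-fold, edgeR, adjusted p = 0.0393), and Hoxd4 was lower by 1.67 ± 0.32 (3.18-fold, adjusted p = 0.0134). For each of these 4 genes all denervated libraries were below both WT innervated libraries. Hoxa3, Hoxa4, Hoxa5 and Hoxa6 are listed on 1 joint locus (mm9 chr6:52119060-52163596), so the split of fragments among them is uncertain.

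Hoxc11 was the gene called higher in WT denervated soleus, by 1.19 ± 0.35 on the log2 scale (2.28-fold, edgeR, adjusted p = 0.0459). Its 2 WT denervated libraries differed almost as much as the groups did. Without WT denervated replicate 2 the difference was 0.63 (adjusted p = 0.123), without WT innervated replicate 1 or replicate 2 it was 1.08 or 1.29 (adjusted p = 0.224 or 0.175), and without DKO-labelled replicate 1 or replicate 2, which share the estimate of spread, it was 1.19 with an adjusted p of 0.0765 or 0.0771. The call was also lost in limma on log2(FPKM + 0.5), with an adjusted p of 0.0637. Hoxa3, Hoxc10 and Hoxd4 kept their calls in every alternative that gave them a value, except the removal of a WT innervated library. Without WT innervated replicate 1 their adjusted p was 0.115, 0.102 and 0.0742, and without replicate 2 it was 0.0909, 0.118 and 0.105, in the order Hoxa3, Hoxc10 and Hoxd4. The median log2 difference over the Hox genes was -0.46 without WT innervated replicate 1 and -0.72 without replicate 2. It was -0.70 without WT denervated replicate 1 and -0.51 without replicate 2. Hoxa5 had adjusted p values of 0.174 and 0.171 without WT innervated replicate 1 and replicate 2, 0.102 without WT denervated replicate 2, and 0.055 and 0.0552 without DKO-labelled replicate 1 and replicate 2.

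Hoxd8 and Hoxd9 just missed in this comparison by edgeR, at -0.99 ± 0.31 (adjusted p = 0.0558) and -0.85 ± 0.27 (adjusted p = 0.0553). With the stretch of sample numbers as a replicate block they passed, at adjusted p values of 0.0274 and 0.0484 by edgeR. That fit called 7 of the 21 Hox genes, beside 4461 of all 12247 genes. DESeq2 also called both, at adjusted p values of 0.02 and 0.0361. Hoxb6 had -1.40 ± 0.53 (adjusted p = 0.0897) and Hoxc6 -0.90 ± 0.38 (adjusted p = 0.114). Hoxa4, Hoxa11, Hoxc4 and Hoxc8 had differences between -0.06 and 0.15. The median over the 21 Hox genes was -0.56, beside 0.00 over all genes tested, and 16 genes were below 0. It was -0.20 over the Hox genes of at least 2 FPKM, and -0.41 and -0.48 within the stretches. By FPKM, 13 Hox genes were lower in WT denervated soleus without overlap, beside 38.5% of all genes, and 3 were higher without overlap (Hoxa7, Hoxc9 and Hoxc11), beside 32.7% of all genes. By cluster the median difference was -0.35 over 9 Hoxa genes, -1.14 over 2 Hoxb genes, -0.06 over 7 Hoxc genes and -0.99 over 3 Hoxd genes. The genes under 0.5 FPKM included anterior genes with the same direction: Hoxb2 had 0.218 and 0.215 FPKM in WT denervated soleus against 0.590 and 0.427 FPKM in WT innervated soleus, and Hoxb3 had 0.337 and 0.340 FPKM in WT denervated soleus against 0.784 and 0.641 FPKM in WT innervated soleus.

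DKO-labelled denervated soleus was last set against WT innervated soleus. This comparison shares its libraries with the other 2, so its values are given beside theirs and are not separate evidence. Hoxc10 was lower by 0.79 ± 0.16 on the log2 scale (1.73-fold, edgeR, adjusted p = 0.0129) and Hoxa3 by 1.51 ± 0.38 (2.85-fold, adjusted p = 0.027). These 2 of the 21 genes were called lower, beside 16.2% of all genes. No Hox gene was called higher, beside 15.2% of all genes, and at an unadjusted p under 0.05 there were 9 Hox genes, all lower, beside 44.8% of all genes. DESeq2 called 5 Hox genes, among 4717 genes in all, and limma on log2(FPKM + 0.5) called 7, among 3866. Hoxd8 and Hoxd9, which were lower in WT denervated soleus than in WT innervated soleus, had positive differences here, at 0.73 ± 0.31 (adjusted p = 0.112) and 0.50 ± 0.26 (adjusted p = 0.188). Hoxd4 had -0.96 ± 0.31 (adjusted p = 0.0569) and Hoxa5 -0.94 ± 0.31 (adjusted p = 0.062). The Hox median was -0.42, beside 0.01 over all genes tested. It was 0.09 over the Hox genes of at least 2 FPKM, so the sign depends on the weaker genes. By FPKM, 14 Hox genes were lower without overlap, beside 40.9% of all genes, and 3 were higher without overlap (Hoxa7, Hoxd8 and Hoxd9), beside 36.4% of all genes. The call of Hoxc10 was lost without WT innervated replicate 1 (adjusted p = 0.0866) or replicate 2 (0.103) and without DKO-labelled replicate 2 (0.0924). That of Hoxa3 was lost without WT innervated replicate 1 (0.151) or replicate 2 (0.105) and without DKO-labelled replicate 1 (0.113) or replicate 2 (0.121).

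Among the factors that mark limb type, the hindlimb gene was well above its forelimb counterpart. Tbx4, a T-box factor of the hindlimb, had 1.28 and 0.905 FPKM in DKO-labelled denervated soleus, 1.26 and 1.06 FPKM in WT denervated soleus and 1.59 and 1.06 FPKM in WT innervated soleus. Tbx5, its forelimb counterpart, was at most 0.0258 FPKM in any library, and had 0 fragments in both DKO-labelled libraries. Pitx1, the hindlimb homeobox factor upstream of Tbx4, was low, from 0.0689 to 0.415 FPKM over the 6 libraries. The 3 groups overlapped for Tbx4. Of 13 tested limb factors edgeR called 0 in WT denervated against WT innervated soleus, beside 28.7% of all genes. At an unadjusted p under 0.05 edgeR gave 4, beside 43.9% of all genes. DESeq2 called 1 of the limb factors and limma 3. The genes of smallest p were Twist1, a mesenchymal regulator, at -1.04 ± 0.34 (adjusted p = 0.0615) and Tbx2 at -1.19 ± 0.39 (adjusted p = 0.0637). In DKO-labelled against WT denervated soleus edgeR called 0 too, beside 0.0408% of all genes, and DESeq2 and limma called 0. At an unadjusted p under 0.05 edgeR gave 0, beside 6.11% of all genes. Emx2, a shoulder blade and limb girdle factor, had 0.93 ± 0.41 there (edgeR, adjusted p = 0.847).

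The TALE homeodomain proteins bind DNA together with Hox proteins. Of 9 tested TALE genes, 3 rose in WT denervated against WT innervated soleus by edgeR, beside 14.4% of all genes. Tgif1, a TALE repressor, had 16.2 and 26.6 FPKM in DKO-labelled denervated soleus, 14.3 and 20.4 FPKM in WT denervated soleus and 3.53 and 3.59 FPKM in WT innervated soleus. It was 5.18-fold higher in WT denervated soleus (log2 difference 2.37 ± 0.31, edgeR, adjusted p = 0.00553). Pknox1 and Pknox2, close relatives, moved in opposite directions: Pknox1 rose by 1.03 ± 0.23 (edgeR, adjusted p = 0.0205) and Pknox2 fell by 1.68 ± 0.33 (adjusted p = 0.0157). Meis1 was also called higher. In DKO-labelled against WT denervated soleus 0 of the 9 were called by edgeR, DESeq2 or limma, and 0 had an unadjusted p under 0.05 by edgeR.

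Polycomb proteins keep Hox genes silent and trithorax proteins keep them active. Of 28 tested Polycomb genes, 3 rose in WT denervated against WT innervated soleus, beside 14.4% of all genes. They were Rbbp4 (0.91 ± 0.15), Pcgf6 (1.58 ± 0.30) and Rbbp7 (0.68 ± 0.15), with adjusted p from 0.00868 to 0.0196 by edgeR. Of 17 tested trithorax and demethylase genes, Psip1 rose (0.79 ± 0.18) while Kdm6b, an H3K27 demethylase, and Mll1, an H3K4 methyltransferase, fell (-0.68 ± 0.15 and -0.60 ± 0.17), with adjusted p from 0.0206 to 0.039 by edgeR. These shares of the list were no higher than those of all genes, 14.4% higher and 14.3% lower. In DKO-labelled against WT denervated soleus edgeR, DESeq2 and limma called 0 genes of either list. At an unadjusted p under 0.05 edgeR gave 1 Polycomb gene, Pcgf2 (-0.75 ± 0.28), and 0 of the trithorax list, beside 6.11% of all genes.

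Of 15 tested genes listed for the muscle lineage, mostly homeobox, Eya and T-box genes, 3 fell in WT denervated against WT innervated soleus, beside 14.3% of all genes. They were Lbx1, a factor of migrating limb muscle precursors (-0.83 ± 0.17, edgeR, adjusted p = 0.0182), Meox2 (-1.24 ± 0.30, adjusted p = 0.0271) and Mkx (-1.57 ± 0.32, adjusted p = 0.0171). Mkx is also counted among the tendon markers below. Lbx1 had 17.7 and 16.4 FPKM in DKO-labelled denervated soleus, 18.7 and 18.6 FPKM in WT denervated soleus and 31.7 and 38.5 FPKM in WT innervated soleus, so the denervated groups lay below both WT innervated libraries, as for Hoxc10. In DKO-labelled against WT denervated soleus edgeR, DESeq2 and limma called 0 of them. Barx2 alone had an unadjusted p under 0.05 by edgeR, beside 6.11% of all genes. None of 11 Cdx, Evx and ParaHox genes reached 0.5 FPKM. Among 7 noncoding RNAs of the clusters found in the tables, 5 microRNA genes were listed at 0, and edgeR called 0 of the 2 tested in either denervated comparison named here. Hoxa11as had -0.98 ± 0.32 in WT denervated against WT innervated soleus (unadjusted p = 0.0193, adjusted p = 0.0602; called by DESeq2 and limma), beside -0.04 ± 0.29 for Hoxa11 on the same locus.

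Genes next to the clusters were read as well. Of the 24 nearest symbols, 3 on each side of each cluster and excluding microRNAs, 18 were tested. In WT denervated against WT innervated soleus 4 rose and 3 fell by edgeR, beside 14.4% of all genes called higher and 14.3% called lower. In DKO-labelled against WT denervated soleus 0 were called by edgeR, DESeq2 or limma. At an unadjusted p under 0.05 edgeR gave 2, beside 6.11% of all genes. Beside the Hoxd cluster, Evx2 was at most 0.039 FPKM as a group mean, Lnp had log2 differences of 0.23 between DKO-labelled and WT denervated soleus and -0.71 between WT denervated and WT innervated soleus, and Mtx2 had -0.05 in each of these comparisons. Farther out, Atp5g3 (757 kb away) had -0.21 and Nfe2l2 (910 kb away) 0.58 (adjusted p = 0.588, edgeR) between DKO-labelled and WT denervated soleus. No tested neighbour of Hoxd reached the 1.72 of Hoxd8 or the 1.34 of Hoxd9. Those Hoxd genes were singled out for the size of their differences, so this does not show where the difference ends.

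Markers of other cell types moved with the WT comparison. In WT denervated against WT innervated soleus edgeR called 6 of 6 adipocyte markers lower, 7 of 8 endothelial, 6 of 7 smooth muscle and pericyte, 6 of 11 muscle fibre, 3 of 6 tendon and 2 of 13 fibroblast markers, beside 14.3% of all genes called lower. The fibroblast share was near that of all genes. It called 4 of 8 Schwann cell markers lower and 2 higher, 1 of 7 satellite cell markers in each direction, and 1 of 8 macrophage and 1 of 6 tendon markers higher, beside 14.4% of all genes called higher. The summed FPKM of the fibroblast markers was 439 to 532 in DKO-labelled denervated soleus, 397 to 616 in WT denervated soleus and 785 to 1020 in WT innervated soleus. For smooth muscle and pericyte markers it was 67.3 to 94 in DKO-labelled denervated soleus, 74.8 to 91 in WT denervated soleus and 176 to 182 in WT innervated soleus. Adipocyte markers summed to 246 to 339 in DKO-labelled denervated soleus, 269 to 298 in WT denervated soleus and 771 to 801 in WT innervated soleus. Endothelial markers summed to 41.8 to 65.9 in DKO-labelled denervated soleus, 52.7 to 62.9 in WT denervated soleus and 124 to 138 in WT innervated soleus. The part of these cell types in the lower Hox levels of denervated soleus was not tested. Acta1 was the only cell type marker listed at 0 in all libraries. In DKO-labelled against WT denervated soleus 0 markers of any of the 9 lists were called by edgeR, DESeq2 or limma. At an unadjusted p under 0.05 edgeR gave 6.11% of all genes there. Among these markers it gave 1 tendon, 1 satellite cell, 1 macrophage and 1 adipocyte marker. They were Fmod, Cdh15, Cd68 and Cidec, in that order. Fmod had 40.6 and 28.7 FPKM in DKO-labelled denervated soleus and 22.8 and 11.6 FPKM in WT denervated soleus. In WT innervated soleus it had 79.8 and 67.4 FPKM. Of the other tendon markers, Mkx was also higher in the DKO-labelled than in the WT denervated libraries (0.646 and 0.539 against 0.372 and 0.305 FPKM). Scx (42.5 and 72.3 against 54.2 and 81.1 FPKM) and Tnmd (6.9 and 8.14 against 6.97 and 2 FPKM) overlapped between these groups. The median log2 difference over the 6 tendon markers was 0.61, and the part of tendon in the Hoxd difference was not tested.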

How the data were processed

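Reads were processed on build mm9 with Cuffdiff 2.0.2, TopHat2 2.0.3, Bowtie2 2.0.0.7, Trim Galore 0.2.1 and CASAVA 1.8.2, per the submitters' processing notes. Their order, the annotation and the strandedness of counting are not stated. Per the file headers, the authors deposited FPKM, a signal of externally scaled fragments, and raw fragments, which are estimated counts (88.4% to 89.0% whole within 1e-06). Each table lists every entry 3 times. Copies were dropped, and entries of 1 symbol were summed. No Hox symbol had several entries or stood in a joined entry. Loci are printed as the tables give them, and the base of their starts (0 or 1) is unknown.

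Levels, shares and group overlaps use the deposited FPKM. The deposited estimated counts were rounded and tested with edgeR 4.0.16 in R 4.3.3: quasi-likelihood test, TMM scaling, group means fitted over all 6 libraries, genes of mean FPKM of at least 0.5 (12247), two-sided, Benjamini-Hochberg adjusted p under 0.05. The fit left 3 residual degrees of freedom with a common coefficient of variation of 0.222. The SE of a log2 difference is its size over the square root of F. DESeq2 1.42.0 and limma 3.58.1 were alternatives. The test was run on simulated counts with known changes first. Totals ran from 25529434 to 46305449 fragments, which limits genes under 0.5 FPKM. The 2 libraries of a group differed by more than counting noise (chi-square per degree of freedom 76.8 in DKO-labelled denervated, 198 in WT denervated and 37.3 in WT innervated soleus) and were counted as 2.

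Groups come from the sample titles, and replicates were numbered in accession order. The Hox genes, the gene lists and the tests were chosen with earlier results of these data known. Named are all Hox genes, up to 4 called members of each list by smallest p or up to 2 where none was called, and the 3 nearest symbols on each side of a cluster; Meis1, Pcgf2, Barx2, Pitx1, Tbx4 and Tbx5 were named after their values were seen, where not already covered. Values of genes on joint loci are uncertain. Some called members of the cofactor and chromatin lists are not reported here.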

Additional observations from a re-analysis of the deposited data

How the results depend on the processing

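The 22 results on single Hox genes with an unadjusted p under 0.05 by edgeR were tried under up to 16 alternatives (338 values). Of these values, 0 reversed direction. The results were chosen by that p and the alternatives reuse the same libraries, so reversals were unlikely from the outset. The count is therefore no separate evidence for the directions. In WT denervated against WT innervated soleus the Hox median was -0.72 with no filter on FPKM and -0.75 and -0.20 at limits of 0.1 and 2 FPKM. It was -0.50 and -0.47 in limma on log2(FPKM + 0.5) and log2(FPKM + 1), and -0.64 in a fit of only the 4 libraries compared. Hox genes called numbered 2 at 2 FPKM, among 3070 genes in all, and 3 in the 4-library fit, among 2778. In DKO-labelled against WT denervated soleus the genes called numbered 10 with RLE size factors, 182 with DESeq2 (2 of them Hox genes), 60 with no filter, 11 and 2 at 0.1 and 2 FPKM, 33, 33 and 27 in limma with pseudocounts of 0.5, 1 and 0.1, and 0 in the 4-library fit. The Hox median was then 0.01 with no filter, -0.03, -0.02 and -0.05 in the 3 limma fits and -0.05 in the 4-library fit. In DKO-labelled denervated against WT innervated soleus, Hox genes called numbered 5 with DESeq2 and 1 at 2 FPKM, among 4717 and 3318 genes in all. They numbered 7, 8 and 7 in the limma fits, among 3866, 3945 and 3669, and 9 in the 4-library fit, among 5535. The median was 0.09 at 2 FPKM. The Hoxc share by fragments was 53.2% in DKO-labelled denervated and 58.9% in WT denervated soleus. The causes of these shifts were not tested.

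Leaving out 1 library at a time, where a lone library is assumed to vary like the other groups, gave 0 to 119 called genes, 0 to 1 called Hox genes and a Hox median of -0.08 to 0.09 in DKO-labelled against WT denervated soleus. In WT denervated against WT innervated soleus it gave 205 to 5370, 0 to 8 and -0.72 to -0.46, and in DKO-labelled denervated against WT innervated soleus 645 to 5555, 0 to 8 and -0.68 to -0.24. The lowest counts of called genes in the comparisons with WT innervated soleus came without an innervated library. For the shares, leaving out 1 of the 2 libraries of a group returns the value of the other, which is no check of stability. The Hoxc share ran from 54.8% to 56.6% in DKO-labelled denervated, 61.7% to 65.9% in WT denervated and 54.3% to 60.3% in WT innervated soleus. The share of groups 9 to 13 ran from 63.3% to 66.6%, 69.0% to 75.7% and 66.4% to 66.8% in the same order. The titles give no replicate numbers. With the stretch of sample numbers as a replicate block, edgeR called 4 genes in DKO-labelled against WT denervated soleus, 0 of them Hox genes. It called 4461 genes in WT denervated against WT innervated soleus, 7 of them Hox genes. In DKO-labelled denervated against WT innervated soleus it called 4707, 3 of them Hox genes. No table entry joins a Hox symbol with another, so adding joined entries gave no other value. Genes under 0.5 FPKM are limited by depth.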
